A study of Mus musculus with 6 samples.

Results

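The transcripts described here are 10 genes by which neurons are usually recognised, read in RNA from spinal cord microglia: Meg3, Map2, Snap25, Syt1, Nefl, Nefm, Nefh, Tubb3, Rbfox3 and Stmn2. They were taken by name from the 55401 genes of the count table, and all 10 were matched. Microglia, the macrophages that live in the brain and spinal cord, were isolated with beads coated for CD11b (a myeloid surface protein) from mice aged 7 months that had received no treatment. One group was non-transgenic C57BL/6 mice (NTg). The other was heterozygous double mutants (ATXN2-Q33;TDP-43) with human TDP-43 and a knocked-in human ATXN2 whose repeat holds 33 glutamines, both of them RNA-binding proteins linked to amyotrophic lateral sclerosis. The promoter that drives human TDP-43 and the strain of the mutants are not given in the sources used here. Each library held the pooled microglia of 3 spinal cords, with 3 libraries from 9 animals in each group. Libraries are called by the number in their titles: NTg replicates 7, 9 and 11, and mutant replicates 8, 10 and 12. The replicates are separate pools, so p-values measure the spread between pools.

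Neurons carry long processes whose skeleton is built from microtubules and neurofilaments, and they release transmitter from synaptic vesicles that fuse with the membrane at axon endings. Many messenger RNAs of this machinery are abundant in the neuronal cell body and some travel along axons, while in other cell types the repressor REST silences many of the genes. In the spinal cord the large projection axons of motor neurons are rich in neurofilaments, and in human motor neurons TDP-43 is known to guard the splicing of STMN2.

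The libraries held 12553570 to 22854628 counted fragments, and 16248 genes passed the filter on low counts. The microglia label was checked against 12 markers, which were detected in every library. They summed to between 11875 CPM (counts scaled to a common library size by TMM) in mutant replicate 10 and 17218 CPM in mutant replicate 12. Per kilobase of exon their mean levels had a median of 198 CPM, and the lowest was 51.8 CPM for Trem2. The 10 neuronal transcripts were far below that, at 0.184 to 1.49 CPM per kilobase. In the bulk libraries, fewer cells of a type and less RNA per cell cannot be told apart. All 10 passed that filter, and none was at 0 in any library.

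The order of the levels per kilobase was led by Nefl, at 1.49 ± 0.229 CPM per kilobase (SD, n = 6 libraries). Nefh followed at 0.885 ± 0.333, Map2 at 0.836 ± 0.358 and Snap25 at 0.670 ± 0.441. Nefm had 0.633 ± 0.198, Tubb3 0.592 ± 0.483 and Meg3 0.573 ± 0.315 CPM per kilobase. Stmn2 and Syt1 were level at 0.277, with SDs of 0.138 and 0.242, and Rbfox3 was the lowest at 0.184 ± 0.0862. Nefl exceeded Nefh in 6 of 6 libraries and Meg3 exceeded Stmn2 in 6 of 6. Every other pair of neighbours in this order held in 1 to 4 of the 6 libraries, so the order of those neighbours was not settled. Tubb3 exceeded Meg3 in 1 of 6 only, NTg replicate 9, so their means were ordered against most libraries.

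**Figure D1:**
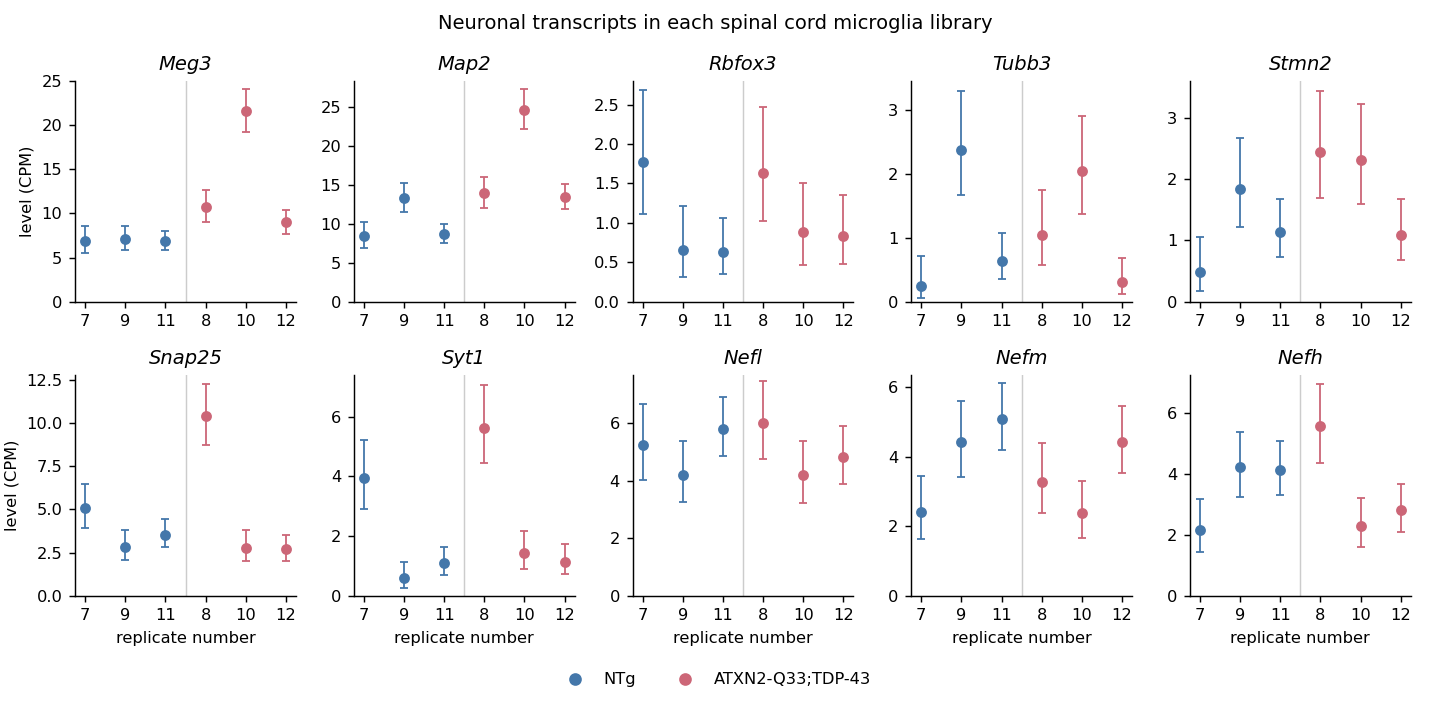
Level of each of the 10 neuronal transcripts in CPM on a linear axis, in each of the 3 NTg and 3 ATXN2-Q33;TDP-43 libraries by replicate number, with exact 95% Poisson intervals of the count. Meg3 and Map2 are the genes whose groups do not overlap, with their highest values in mutant replicate 10, and Snap25 and Syt1 peak in mutant replicate 8.

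Meg3 is an imprinted long noncoding RNA expressed from the maternal chromosome, abundant in neurons, and annotated at chr12:109541001-109571726 on the plus strand (mm10). Its counts were 86, 108 and 151 in NTg replicates 7, 9 and 11, and 145, 318 and 173 in mutant replicates 8, 10 and 12. After scaling these were 6.93, 7.11 and 6.85 CPM against 10.8, 21.6 and 8.99 CPM. The NTg libraries lay within a narrow band, every mutant library lay above them, and mutant replicate 10 stood highest. The log2 fold change was 0.98 (SE 0.32, 95% interval 0.26 to 1.70), higher in 3 of 3 mutant libraries. It did not pass edgeR's quasi-likelihood test after Benjamini-Hochberg adjustment (unadjusted p = 0.0135, adjusted p = 0.9996). The exact two-sided permutation p was 0.1, the smallest that 3 against 3 libraries allow. Without mutant replicate 10 the log2 fold change was 0.50 (SE 0.21).

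Map2, at chr1:66175273-66442583 on the plus strand, encodes a microtubule-associated protein of dendrites. It had 105, 202 and 192 counts in NTg replicates 7, 9 and 11, and 188, 364 and 259 in mutant replicates 8, 10 and 12. These were 8.46, 13.3 and 8.71 CPM against 13.9, 24.7 and 13.5 CPM. The groups did not overlap, but NTg replicate 9 lay within 1 CPM of mutant replicates 8 and 12, and mutant replicate 10 was again the highest. The log2 fold change of Map2 was 0.77 (SE 0.28, 95% interval 0.12 to 1.42), and it did not pass the adjusted test either (unadjusted p = 0.0251, adjusted p = 0.9996 with edgeR; exact permutation p = 0.1). Without mutant replicate 10 it was 0.43 (SE 0.23). On the per-kilobase scale, the ratio of Meg3 to Map2 stayed between 0.486 and 0.795, the narrowest of the 6 ratios between members that were computed.

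The promoters of Meg3 and Map2 are shown because both members were highest in mutant replicate 10, then 8, then 12. They run from 250 bases before to 50 bases after the RefSeq start (GRCm38.p6), 5′ to 3′ on the strand of the gene. For Meg3, which has 2 such starts in the table, the first is printed. Meg3 lies at chr12:109540746-109541045 and Map2 at chr1:66175079-66175378, both on the plus strand. Capitals mark matches to the cAMP response element (TGACGTCA), the GC box (GGGCGG) and the TATA box (TATAAA), searched on both strands.
Meg3: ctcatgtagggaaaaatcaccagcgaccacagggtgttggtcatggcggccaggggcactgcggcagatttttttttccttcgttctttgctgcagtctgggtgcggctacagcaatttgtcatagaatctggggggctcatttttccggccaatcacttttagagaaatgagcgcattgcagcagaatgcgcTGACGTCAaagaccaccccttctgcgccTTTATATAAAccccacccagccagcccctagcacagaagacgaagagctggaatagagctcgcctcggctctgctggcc
Map2: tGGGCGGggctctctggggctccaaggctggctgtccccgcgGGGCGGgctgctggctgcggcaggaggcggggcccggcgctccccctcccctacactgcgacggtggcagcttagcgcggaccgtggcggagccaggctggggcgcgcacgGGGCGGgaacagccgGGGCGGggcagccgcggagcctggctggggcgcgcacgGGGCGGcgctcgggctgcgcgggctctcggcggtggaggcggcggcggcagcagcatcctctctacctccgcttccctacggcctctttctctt

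The printed Meg3 window held 1 cAMP response element, a motif that 1.79% of 32851 RefSeq promoters of this length contain, and overlapping TATA boxes on opposite strands, a motif found in 13.6%. The Map2 window held 5 GC boxes and none of the other motifs, and 35.7% of all promoters have at least 1 GC box. Of its bases 77.7% were G or C, against 53.7% for Meg3 and a median of 52.7% over all promoters. The printed windows of these 2 genes shared none of the motifs searched. The E-box (CANNTG), which 72.3% of promoters hold, was in neither printed window, and the window of the second Meg3 start, at chr12:109545148-109545447, held 1 E-box and no other motif. The left part of the site bound by REST (TTCAGCACC, found in 0.371% of promoters) was in none of the 7 windows of the 5 members matched, which says only that these letters are not in these windows. A match is a description of the sequence and not a site in use.

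Meg3 also hosts microRNAs, and its counts include fragments over them. Their mature forms are shown with the seed, bases 2 to 8, in capitals, since they mark what lies within the counted RNA.
mmu-miR-1906: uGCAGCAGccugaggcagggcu
mmu-miR-770-5p: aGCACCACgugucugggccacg
mmu-miR-770-3p: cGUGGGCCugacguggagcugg

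The seeds differ from each other, so the 3 form no shared family. The microRNA gene Mir1906-1 shares 80 exon bases with Meg3, with 3, 3 and 4 counts for NTg and 0, 7 and 0 for mutants. Mir770 shares 94 and had 0, 0 and 3 against 0, 6 and 0 counts. A fragment over either was counted for Meg3 as well, and these counts are small beside those of Meg3. Of the 5 imprinted neighbours of Meg3, Rian, the long noncoding RNA that hosts small nucleolar RNAs, was the only gene tested. It had 40, 53 and 45 counts in NTg replicates 7, 9 and 11 and 42, 146 and 70 in mutant replicates 8, 10 and 12, so mutant replicate 10 was the highest for Rian as for Meg3. Its log2 fold change of 0.93 (SE 0.47) did not pass the test, with an unadjusted edgeR p of 0.0800. The untested neighbours had few counts. Mirg had 0, 0 and 2 for NTg against 6, 4 and 7 for mutants, and Dlk1 4, 0 and 7 against 0, 0 and 0. Rtl1 had 1, 0 and 3 against 1, 2 and 0. Dio3, which encodes a deiodinase that inactivates thyroid hormone, was at 0 in every library.

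The ependymal and astrocyte marker sums were highest in mutant replicate 10 too, as were the oligodendrocyte precursor, endothelial and Schwann cell marker sums. The microglia marker sum was lowest there. Oligodendrocyte markers peaked in NTg replicate 9 and neutrophil markers in mutant replicate 8. The 9 ependymal markers summed to 16.4 to 35.4 CPM in NTg libraries and 25.4 to 109 CPM in mutants, with 109 CPM in mutant replicate 10. All 6 that were tested had a positive log2 fold change, with a median of 1.36. Of these, 3 had an unadjusted edgeR p under 0.05 and none passed the adjusted test. The marker Sntn was at 0 in 3 libraries. The 9 astrocyte markers, none at 0 in any library, summed to 110 to 145 CPM in NTg libraries and 120 to 209 CPM in mutants. Not every one of them was highest in mutant replicate 10. Their log2 fold change was positive for 7 and negative for 2, and 1 had an unadjusted edgeR p under 0.05. The part of these cells in the levels of Meg3 and Map2 was not tested. With the oligodendrocyte marker sum as a covariate, the log2 fold changes were 0.97 for Meg3 (SE 0.25) and 0.85 for Map2 (SE 0.17), beside 0.98 and 0.77 without it. No other marker sum was used as a covariate, so that fit does not bear on the cells of the other lists.

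Snap25 and Syt1 serve vesicle release, the first as a membrane SNARE protein and the second as the calcium sensor of fast release. Snap25, at chr2:136713453-136782428 on the plus strand, had 63, 43 and 78 counts in NTg replicates 7, 9 and 11 and 140, 41 and 52 in mutant replicates 8, 10 and 12. Scaled, these were 5.07, 2.83 and 3.54 CPM against 10.4, 2.78 and 2.70 CPM. Mutant replicate 8 was the highest library while the other mutant libraries were the lowest, so the groups overlapped. Between genotypes Snap25 differed by 0.47 on the log2 scale (SE 0.56, 95% interval -0.82 to 1.76), and by -0.47 without mutant replicate 8.

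Syt1, at chr10:108497650-109010982 on the minus strand, was counted 49, 9 and 24 times in NTg and 76, 21 and 22 times in mutants. These were 3.95, 0.593 and 1.09 CPM against 5.64, 1.42 and 1.14 CPM. The high libraries were again mutant replicate 8 and NTg replicate 7, the span from lowest to highest was 9.51-fold, and the groups overlapped. The 9 counts of NTg replicate 9 have an interval of 4.12 to 17.1, well below the 59.9 to 95.1 of mutant replicate 8. For Syt1 the log2 fold change was 0.56 (SE 0.86, 95% interval -1.46 to 2.58), and -0.52 without mutant replicate 8. The promoter of the first of 2 Syt1 starts is shown beside those of Meg3 and Map2 because Syt1 followed a different order of libraries (RefSeq, GRCm38.p6, chr10:109010926-109011225, minus strand, capitals for the single GC box). The window of the second start, at chr10:109009062-109009361, held 3 E-boxes and no GC box.
Syt1: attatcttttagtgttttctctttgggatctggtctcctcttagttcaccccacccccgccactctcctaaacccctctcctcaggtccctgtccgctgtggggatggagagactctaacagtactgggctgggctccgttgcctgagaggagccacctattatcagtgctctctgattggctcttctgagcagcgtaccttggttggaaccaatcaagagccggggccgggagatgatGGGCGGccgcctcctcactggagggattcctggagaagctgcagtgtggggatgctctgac

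Together Snap25 and Syt1 reached 9.02, 3.43 and 4.63 CPM for NTg against 16.02, 4.21 and 3.84 CPM for mutants. The same libraries, mutant replicate 8 and NTg replicate 7, were the highest for Slc17a7, a vesicular glutamate transporter. It had 39, 6 and 21 counts in NTg libraries and 38, 11 and 22 in mutants. Slc17a7 was the only 1 of 14 transmitter identity genes with enough counts to be tested, and its log2 fold change was 0.09 (SE 0.78). Isl1 and Mnx1, transcription factors of motor neurons, were at 0 in every library. Chat, the enzyme that makes acetylcholine, had 3 counts in mutant replicate 12 and 0 elsewhere. Neutrophil markers also peaked in mutant replicate 8: the 8 genes, none at 0, summed to 154 to 601 CPM in NTg libraries and 51.9 to 1570 CPM in mutants. Their order over all 6 libraries was not that of the synaptic pair, since mutant replicate 10 came second with 1002 CPM. Their part in the synaptic levels was not tested.

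The neurofilament genes encode the light, medium and heavy chains that assemble into the filaments of large axons. Nefl, the light chain, lies at chr14:68083863-68089095 on the plus strand. It had 65, 64 and 128 counts in NTg replicates 7, 9 and 11 and 81, 62 and 93 in mutant replicates 8, 10 and 12, which were 5.23, 4.22 and 5.81 CPM against 6.01, 4.21 and 4.83 CPM. The libraries of both groups filled the same range, and the highest was 1.43-fold above the lowest, the smallest span of the 10 members. Nefl thus had a genotype difference of -0.024 on the log2 scale (SE 0.25, 95% interval -0.60 to 0.55).

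Nefm, the medium chain, lies at chr14:68082590-68124846 on the minus strand, so its annotation overlaps Nefl on the opposite strand, and the strand-specific counting keeps the genes apart. It had 30, 67 and 112 counts in NTg libraries and 44, 35 and 85 in mutants, or 2.42, 4.41 and 5.08 CPM against 3.26, 2.37 and 4.41 CPM. Both groups had 1 library near 2.4 CPM, and the groups overlapped. For Nefm the difference was -0.25 (SE 0.37, 95% interval -1.08 to 0.58).

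Nefh, the heavy chain, at chr11:4938754-4948064 on the minus strand, had 27, 64 and 91 counts in NTg libraries and 75, 34 and 54 in mutants. Scaled, these were 2.17, 4.22 and 4.13 CPM against 5.56, 2.31 and 2.80 CPM. Mutant replicate 8 was the highest and NTg replicate 7 the lowest, with overlap between groups. Its genotype difference on the log2 scale was 0.0076 (SE 0.42, 95% interval -0.93 to 0.95), and without mutant replicate 8 it was -0.46. The 3 chains together reached 9.83, 12.8 and 15.02 CPM for NTg against 14.8, 8.89 and 12.05 CPM for mutants. Per kilobase, Nefm was 0.270 to 0.612 of Nefl and Nefh was 0.352 to 0.846 of Nefl over the 6 libraries. The ratio of the synaptic pair to the neurofilaments per kilobase was 0.486, 0.159 and 0.179 in NTg libraries and 0.590, 0.260 and 0.185 in mutants, so it was high in mutant replicate 8 and NTg replicate 7.

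Tubb3, the neuronal class of beta tubulin, lies at chr8:123411424-123422015 on the plus strand. It had 3, 36 and 14 counts in NTg replicates 7, 9 and 11 and 14, 30 and 6 in mutant replicates 8, 10 and 12, or 0.242, 2.37 and 0.635 CPM against 1.04, 2.04 and 0.312 CPM. NTg replicate 9 and mutant replicate 10 were the high libraries, 1 from each group, and the span was 9.82-fold. Those libraries were also the highest for 10 oligodendrocyte markers, which summed to 186, 1676 and 448 CPM in NTg libraries and 360, 1172 and 170 CPM in mutants, with Opalin at 0 in 1 library. The part of oligodendrocytes in the level of Tubb3 was not tested. For Tubb3 the log2 fold change was 0.038 (SE 0.89, 95% interval -1.99 to 2.06), and it lay between -0.73 and 1.28 when each library was left out in turn.

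Rbfox3, the splicing factor known as NeuN and used to stain neuronal nuclei, lies at chr11:118489762-118911597 on the minus strand. Its counts were 22, 10 and 14 in NTg libraries and 22, 13 and 16 in mutants, or 1.77, 0.659 and 0.635 CPM against 1.63, 0.882 and 0.831 CPM. NTg replicate 7 and mutant replicate 8 were the highest, as for Syt1, and the groups overlapped. Mutant minus NTg, the log2 difference of Rbfox3 came to 0.15 (SE 0.59, 95% interval -1.18 to 1.47).

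Stmn2, a stathmin that binds tubulin in growing and mature axons, lies at chr3:8509360-8561606 on the plus strand. It had 6, 28 and 25 counts in NTg replicates 7, 9 and 11 and 33, 34 and 21 in mutant replicates 8, 10 and 12. The levels were 0.483, 1.84 and 1.13 CPM against 2.45, 2.31 and 1.09 CPM. NTg replicate 7 was the lowest library and mutant replicate 12 fell among the NTg values, so the groups overlapped. Stmn2 differed by 0.73 on the log2 scale (SE 0.56, 95% interval -0.52 to 1.99), and it stayed positive, at 0.39 to 1.21, when each library was left out. The table counts whole genes, so splicing within Stmn2 was not analysed here.

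**Figure D2:**
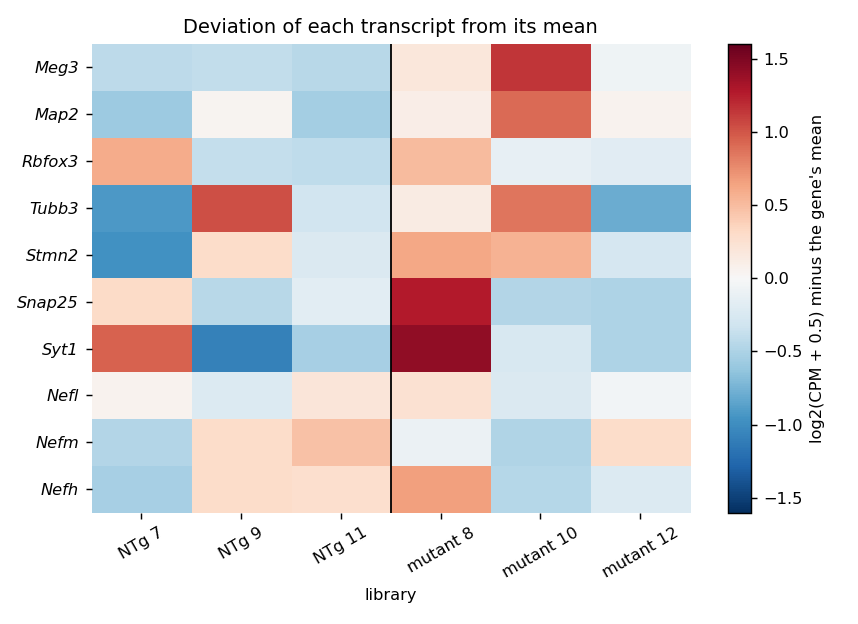
Deviation of each transcript from its own mean over the 6 libraries, as log2(CPM + 0.5), with genes in rows and libraries in columns, red for above and blue for below the mean. Mutant replicate 8 is among the highest 2 libraries for 8 of 10 genes, and NTg replicate 7 is the lowest library for 4.

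The members did not vary as 1 block. Mutant replicate 8 was the highest library for 5 of them (Snap25, Syt1, Nefl, Nefh and Stmn2) and mutant replicate 10 for Meg3 and Map2, while Nefm, Tubb3 and Rbfox3 peaked in NTg replicates 11, 9 and 7. NTg replicate 7 was the lowest library for Map2, Nefh, Tubb3 and Stmn2. The ratio of Snap25 to Nefm per kilobase ran from 0.521 in mutant replicate 12 to 2.71 in mutant replicate 8. The median log2 range of the members over the libraries was 1.54, against 0.60 for all genes tested and 0.87 for the 7591 tested genes at the members' levels in CPM, as log2(CPM + 0.5). As log2(CPM + 2) these medians were 0.91, 0.48 and 0.61. The variance of their counts exceeded the counting variance by 1.87 times for Nefl and by 48.8 times for Meg3, with a median of 9.50 times against 4.93 times for all genes tested.

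Between genotypes, 0 of the 10 members passed the edgeR test at an adjusted p of 0.05, and 0.0% of all genes did. At an unadjusted p under 0.05, 2 of 10 passed, Meg3 and Map2, both higher in mutants, where 2.26% of all genes passed in either direction and 1.4% were higher. DESeq2, which called 0.0431% of all genes, and limma voom also called 0 of 10 members, with 2 of 10 at an unadjusted p under 0.05 in each. In edgeR that count was 1 without NTg replicate 7, without NTg replicate 11, without mutant replicate 10 and without NTg replicate 9 and mutant replicate 10 together. It was 0 with a covariate for the libraries whose column names mark combined alignments (NTg replicates 7 and 9). With neighbouring sample codes as a block, pairs that the labels do not name, Map2 was called, as were 0.437% of all genes. The groups did not overlap for the same 2 genes, as for 3.27% of all genes in that direction. The log2 fold change was positive for 8 of 10 members, against 52.0% of all genes, and negative for Nefl and Nefm. The median of the members was 0.31 and that of all genes 0.01. It was -0.20 without mutant replicate 8.

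**Figure D3:**
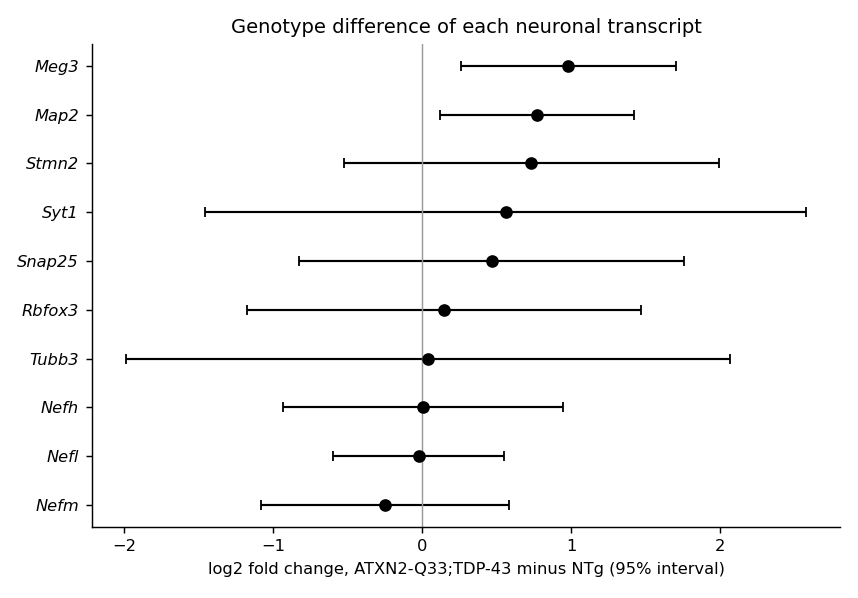
Log2 fold change of each transcript, ATXN2-Q33;TDP-43 minus NTg, from the edgeR fit over 3 libraries per group, with 95% intervals as bars. The intervals of Meg3 (0.26 to 1.70) and Map2 (0.12 to 1.42) lie above 0, and those of the other 8 genes include 0.

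Summed over the 10 members, the level reached 36.7, 41.6 and 37.6 CPM for NTg against 60.7, 64.6 and 40.6 CPM for mutants. The high sums of mutant replicates 8 and 10 had different makeups. Without Meg3 and Map2 the other 8 members summed to 21.3, 21.1 and 22.1 CPM in NTg libraries and 36.0, 18.3 and 18.1 CPM in mutants, so mutant replicate 8 alone stood above the rest and the other mutant libraries lay below every NTg library.

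**Figure D4:**
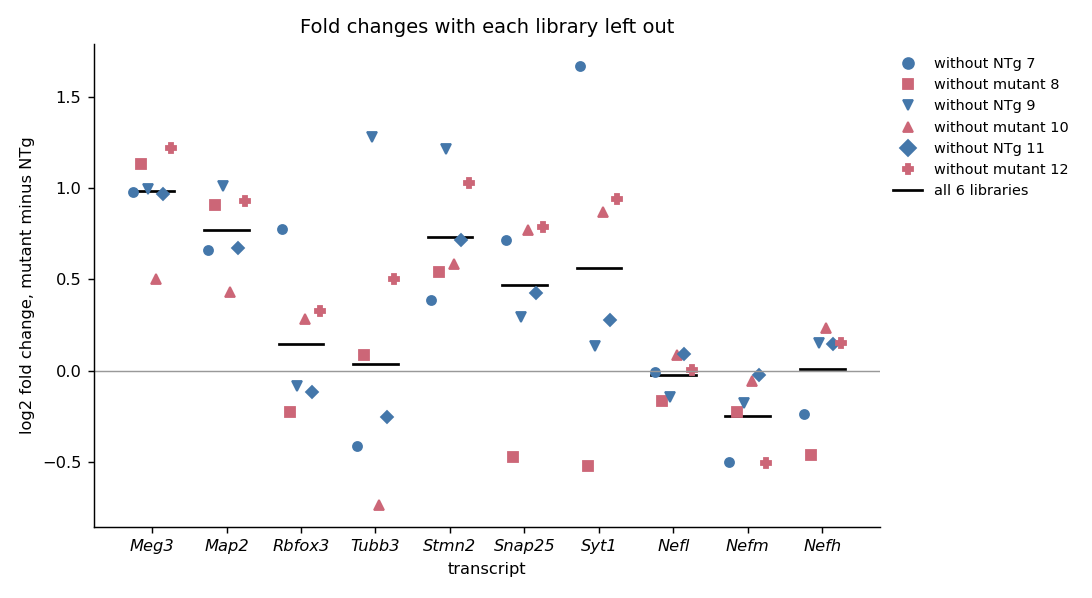
Log2 fold change of each transcript with each of the 6 libraries left out in turn (points) and with all libraries (black bars). Meg3, Map2 and Stmn2 stay above 0 and Nefm below 0 throughout, and Snap25, Syt1, Nefl, Nefh, Tubb3 and Rbfox3 change sign.

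Other neuronal genes were read from 9 lists, and no gene of them passed the adjusted test. Of 20 synaptic vesicle and release genes 19 were tested, 14 with a positive and 5 with a negative log2 fold change, with a median of 0.16. Snap91, which helps to form clathrin coats at synapses, had 6, 11 and 6 counts in NTg libraries and 26, 19 and 14 in mutants, without overlap and with a log2 fold change of 1.43 (SE 0.61). In edgeR its unadjusted p was 0.0431 and its adjusted p 0.9996. Complexin 2 (Cplx2), which clamps vesicle fusion, differed by 0.60 on the log2 scale (SE 0.37) and was highest in mutant replicate 8, as were Syn1 and Sncb. Of the 19, 2 had no overlap between groups, Snap91 and Cplx2, both higher in mutants, as had 3.27% of all genes in that direction. The most abundant gene of this list per kilobase was Vamp2, a vesicle SNARE, at 12.9 CPM per kilobase, above every member, with a log2 fold change of 0.09 (SE 0.17).

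Of 20 axonal cytoskeleton and transport genes 14 were tested, 7 in each direction, with a median of -0.03. The kinesin heavy chains Kif5c and Kif5a, motors that carry cargo along axons, had the smallest p. Kif5a had 251, 875 and 729 counts in NTg libraries and 340, 296 and 232 in mutants, a log2 fold change of -0.96 (SE 0.46), and Kif5c one of -1.13 (SE 0.52). Their unadjusted p in edgeR was 0.0888 and 0.0682, and the adjusted p of both was 0.9996. In both, NTg replicate 7 lay within the mutant range. Mapt, which encodes tau, followed the libraries of Tubb3, with 22, 197 and 68 counts against 43, 215 and 45.

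The 10 other stathmins and beta tubulins had a median of -0.08, 4 positive and 6 negative. Tubb1, the beta tubulin of platelets, had the smallest p, with 121, 93 and 176 counts in NTg libraries and 42, 50 and 78 in mutants, a log2 fold change of -1.17 (SE 0.25). Tubb6, at -0.21 (SE 0.09), was also lower in 3 of 3 mutant libraries. In edgeR the unadjusted p was 0.00124 for Tubb1 and 0.0381 for Tubb6, and the adjusted p of both was 0.9996. Per kilobase Tubb5, a tubulin of many cell types, reached 56.2 CPM and Stmn1, a stathmin of dividing cells, 15.96 CPM, both far above Tubb3 and Stmn2. Stmn4, a neuronal stathmin, had 6, 113 and 24 counts against 35, 191 and 12, high in the same 2 libraries as Tubb3.

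Of 12 neuronal RNA-binding proteins and transcription factors 8 were tested, 4 in each direction, with a median of -0.08. The smallest p belonged to genes that were lower in mutants. Celf5, a splicing factor, had 32, 22 and 39 counts in NTg libraries and 10, 7 and 14 in mutants, a log2 fold change of -1.57 (SE 0.46). Elavl4, which stabilises neuronal messenger RNAs, had 62, 58 and 80 against 37, 27 and 56 counts, a log2 fold change of -0.73 (SE 0.32). In neither did the groups overlap in CPM, as in 3.58% of all genes for lower levels in mutants. In edgeR the unadjusted p was 0.00809 for Celf5 and 0.0463 for Elavl4, and the adjusted p of both was 0.9996. The direction of both was opposite to that of Meg3 and Map2.

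Of 16 neuronal channels and receptors 11 were tested, 10 with a positive log2 fold change and a median of 0.57, and no gene had an unadjusted p under 0.05. Scn2a, a sodium channel of axons, had 14, 12 and 8 counts in NTg libraries and 30, 18 and 16 in mutants (log2 fold change 0.93, SE 0.60), and Scn8a had one of 0.76 (SE 0.58). Of 8 long-intron neuronal genes known to depend on TDP-43, 6 were tested, 3 in each direction. Nrxn3, a presynaptic adhesion protein, had 4, 7 and 7 counts against 12, 11 and 14, a log2 fold change of 1.10 (SE 0.56), and Nlgn1, a postsynaptic partner of neurexins, had one of 1.11 (SE 0.63). The unadjusted edgeR p of Nrxn3 was 0.0789 and its adjusted p 0.9996. The 8 genes of the REST repressor complex summed to 403 to 447 CPM in all libraries. Rest itself had 63.0 ± 6.61 CPM in NTg and 65.6 ± 2.35 CPM in mutants (SD, n = 3), with a log2 fold change of 0.06 (SE 0.10).

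**Figure D5:**
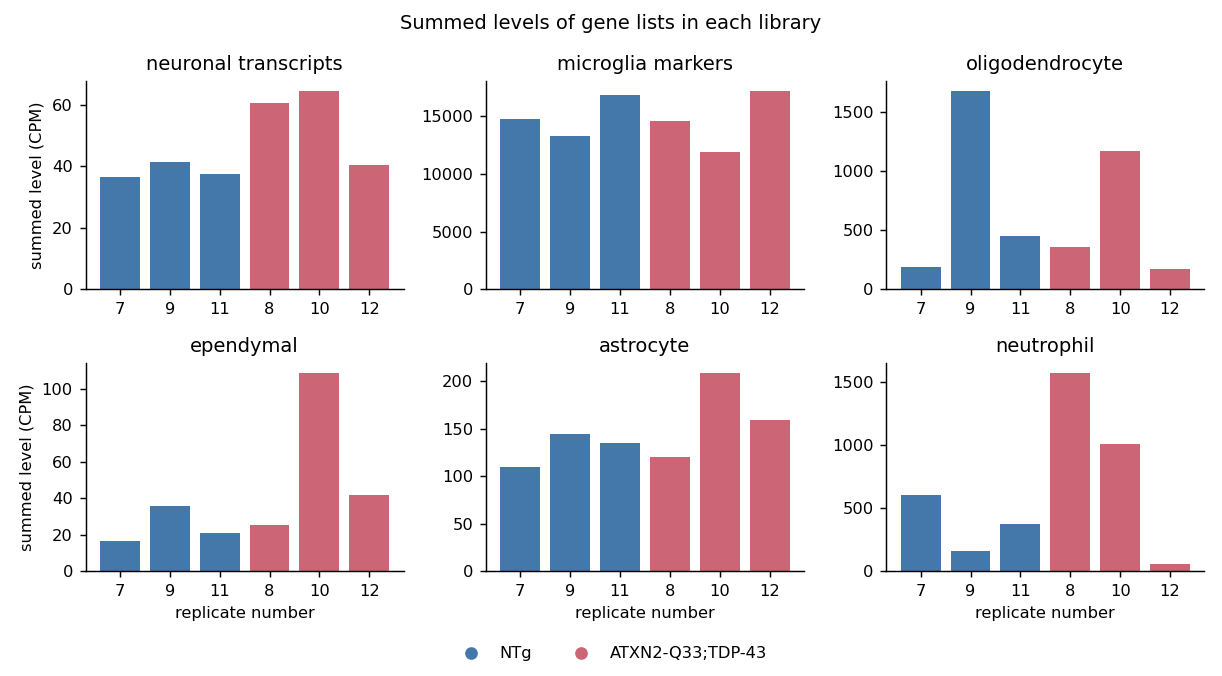
Summed CPM of the neuronal transcripts and of marker lists of microglia and other cell types in each library, by replicate number, on linear axes that start at 0. The lists peak in different libraries: oligodendrocyte markers in NTg replicate 9 (1676 CPM), ependymal markers in mutant replicate 10 (109 CPM) and neutrophil markers in mutant replicate 8 (1570 CPM).

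Beside the lists given above, 6 oligodendrocyte precursor markers summed to 8.05 to 33.1 CPM in NTg libraries and 6.02 to 35.8 CPM in mutants, with Gpr17 at 0 in some libraries. The 8 endothelial markers, none at 0, summed to 99.6 to 341 CPM in NTg libraries and 95.8 to 353 CPM in mutants. The 6 Schwann cell markers summed to 0.805 to 2.503 CPM in NTg libraries and 1.82 to 5.16 CPM in mutants, with Pmp2 at 0 in every library. Each of these sums was highest in mutant replicate 10, with NTg replicate 9 next.

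Genes whose profiles were most like those of the members were ranked by the root mean square difference of centred log2(CPM + 0.5) over the 6 libraries, among 12086 genes. The closest to the mean of the members were Tcea2, Tbc1d25, Olfr365, Sh2d3c and Pdcd6, with Tcea2 differing by 0.0375. The closest to Meg3 were Morn1, Cfap157, Tmem246, Atp2b4 and Cfap45, with Morn1 at 0.120. Morn1 had 1.45, 1.71 and 1.68 CPM in NTg libraries and 2.60, 7.06 and 2.39 CPM in mutants. The closest to Stmn2 were Cpne8, Kctd17, Mill2, Ptpn22 and Asap2, from 0.136 upward. The closest to Nefl were Tradd, Trp53i13, Vps51, Tns4 and Lcmt2, from 0.0200 upward. With 6 points for so many genes, close profiles are a description only.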

How the data were processed

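The authors deposited raw counts of fragments for each gene. Per the file headers, featureCounts 1.6.1 counted paired fragments against GENCODE vM25 with strand setting 2, so a gene and its antisense partner are separate, and a fragment that overlaps several genes on a strand counts for each. The tools named in the submitters' processing notes are Trim Galore 0.4.1 for trimming, FastQC, TopHat2 with the mm10 build, and DESeq2. Per the labels' protocols, the RNA was depleted of ribosomal RNA and prepared with a stranded kit for very small inputs. The column names mark the alignments of NTg replicates 7 and 9 as combined. The table's 6 columns of other samples were not used.

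Symbols were matched by Ensembl identifier for 55141 of 55401 genes, and 260 had none. Counts were filtered with filterByExpr (minimum count 10) and fitted in edgeR 4.0.16 under R 4.3.3 with TMM scaling and a robust quasi-likelihood test of mutant minus NTg libraries and no covariates. The p-values were adjusted by Benjamini-Hochberg over all 16248 genes tested, with calls at 0.05; the biological coefficient of variation common to all genes was 0.261. Fold changes carry a standard error (SE) from the fit and a 95% interval. Intervals of single counts are exact Poisson intervals and cover counting error only. The exact permutation tests were two-sided and ran on log2(CPM + 0.5). The edgeR step was tested on simulated counts with known changes.

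The members and the other gene lists were chosen with earlier results of these data known. All 10 members are named. From each other neuronal list, the 2 to 4 genes with the smallest p are named, or the most abundant per kilobase, except that the transmitter identity and imprinted lists had 1 tested gene each and only Rest is named of the REST complex. For likeness the 5 closest genes of each of 4 profiles are named. Markers named at or near 0, the untested imprinted genes, Rest, Syn1, Sncb, Mapt, Stmn4, Stmn1 and Tubb5 were named after their values were seen. The 17 alternatives covered DESeq2 1.42.0, limma 3.58.1 (voom), scaling, filters, covariates, a block and libraries left out.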

Additional observations from a re-analysis of the deposited data

How the results depend on the processing

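The count of genes called between genotypes was 0 and moved to 7 with DESeq2, 6 with no filter on low counts, 1 without NTg replicate 9 and mutant replicate 10 together, 2 with the oligodendrocyte marker sum as a covariate, and 71 (51 higher, 20 lower) with a block of neighbouring sample codes. It was 0 to 2 with each library left out, the 2 without mutant replicate 12. The groups share no replicate number and the labels name no pairs, so the pairing behind this block is undocumented. Under that block 1 member was called, Map2, with a log2 fold change of 0.75 (SE 0.15) and an adjusted p of 0.0336 in edgeR, and 0 under the 16 other alternatives. The median of the members was -0.20 to 0.65 with each library left out and 0.79 with a covariate for combined alignments. The unadjusted p in edgeR was then 0.0882 for Meg3 and 0.0590 for Map2. Directions held under all 17 alternatives for Meg3, Map2 and Stmn2. With a library left out, the log2 fold change spanned -0.47 to 0.79 for Snap25, -0.52 to 1.67 for Syt1, -0.17 to 0.091 for Nefl, -0.46 to 0.23 for Nefh, -0.73 to 1.28 for Tubb3 and -0.22 to 0.78 for Rbfox3. Nefm was 0.023 without NTg replicate 9 and mutant replicate 10. Nefh was -0.14 with voom, -0.060 with the block and -0.22 with a covariate for combined alignments (replicate 11 then stands alone for NTg). Rbfox3 was not tested at a minimum of 1 CPM in 3 libraries. The causes were not tested. With log2(CPM + 2), the range over the libraries fell to 1.56 for Syt1, 0.96 for Tubb3 and 0.84 for Stmn2, and the 5 closest genes shared 3 with those above for the mean, Meg3 and Stmn2 and 4 for Nefl. Low counts limit Tubb3, Rbfox3, Syt1 and Stmn2 most.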
